A study of Sus scrofa with 6 samples.

Results

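The importin alphas KPNA1 to KPNA7 and the importin beta gene KPNB1 were followed in RNA-seq libraries of mature pig (Sus scrofa) oocytes, which rest in the second meiotic metaphase (MII). The 8 genes were taken by their pig Ensembl symbols from the 25880 genes in the count files, and all 8 were found. The 6 libraries were 3 control and 3 malathion libraries. Control oocytes matured in vitro with no malathion, and the labels do not say whether they received the solvent DMSO. The other oocytes matured with 1 mM malathion, an organophosphate insecticide given from a stock in DMSO. Oocytes came from slaughterhouse ovaries as cumulus oocyte complexes, and polyadenylated RNA was amplified by a Smart-seq2 method. The labels name no age or breed, no number of oocytes per library and no separate cultures. P-values thus rest on the variation among these samples alone, and that variation may be technical.

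Importin alphas are adaptors that bind the classical nuclear localization signal of a cargo protein and join it to importin beta, which carries the complex through the nuclear pore. RAN bound to GTP releases the cargo inside the nucleus, and the exportin CSE1L returns the empty adaptor to the cytoplasm. In mammals KPNA7 is an importin alpha made mainly in oocytes and early embryos, where it is stored as maternal mRNA. After nuclear envelope breakdown the same proteins hold spindle assembly factors such as TPX2 inactive until RAN releases them. By sequence the alphas form 3 subtypes, which hold KPNA2 with KPNA7, KPNA3 with KPNA4, and KPNA1 with KPNA5 and KPNA6.

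Total gene counts ran from 25816040 to 42312341 per library. Levels are given as CPM, counts scaled to these totals, and values of a group are listed in the order of replicates 1, 2 and 3. Control replicate 3 and malathion replicate 3 stood apart with 8344 and 8492 genes detected, against 12211 to 14707 in the other 4 libraries. Control replicate 2 also stood apart, with the oocyte growth factor GDF9, an example chosen after its values were seen, at 2650 CPM against 27.5 to 404 CPM in the other 5 libraries. Of 12 oocyte markers, 11 were matched and each was detected. Their summed level was 6471 to 103776 CPM in control and 4878 to 113828 CPM in malathion libraries, lowest in both replicate 3 libraries. Single markers did not all follow the sum. ZP2 and MOS were highest in malathion replicate 3, at 2158 and 1458 CPM, and OOEP in control replicate 3, at 382 CPM. GDF9 does not stand for this list, although ZP3 was also highest in control replicate 2, at 998 CPM. The list summed to 41605 CPM in that library, against 103776 CPM in control replicate 1. In malathion replicates 1 and 2 it summed to 113828 and 81972 CPM. Of 15 cumulus and granulosa markers, 12 were matched and summed to 38.1 to 666 CPM in control and 68.0 to 740.3 CPM in malathion libraries, most of it VCAN and KITLG, with AMH at 0. Of 10 markers of theca, stroma, blood and endothelium, 9 were matched, their sum stayed within 15.4 CPM, and CYP17A1 and CDH5 were at 0. In such bulk samples, fewer cells of a type and less RNA per cell cannot be told apart. The part of these library differences in the importin values was not tested.

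KPNA7 was among the most abundant transcripts of the oocyte in 4 of the 6 libraries, and its level differed more between replicates than between malathion and control. KPNA7 (ENSSSCG00000007607) stood at 11377, 4136 and 199 CPM under control conditions, and at 8014, 8796 and 28.1 CPM after malathion. Both replicate 3 libraries were low, and the groups overlapped. By rank among all genes KPNA7 was 5th, 18th and 458th under control conditions and 12th, 7th and 799th after malathion. In control replicate 1 it took 1.14% of all gene counts. The mean was 5237 ± 5669 CPM for control and 5613 ± 4852 CPM for malathion (SD, n = 3 each). The level in control replicate 1 was 405 times that in malathion replicate 3. The SD of log2 CPM over the libraries was 3.57, above that of 92.4% of the 1424 genes with a mean level of 100 CPM or more, whose median was 2.47.

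KPNA2, the adaptor closest to KPNA7 in sequence and common in dividing cells, was the most even member among the 4 libraries with more genes. KPNA2 (ENSSSCG00000029005) stood at 455, 480 and 2.65 CPM under control conditions and at 454, 512 and 10.4 CPM after malathion. Its 4 high values spanned 454 to 512 CPM in both groups, while KPNA7 varied from 4136 to 11377 CPM over the same libraries. KPNA2 was lower in control replicate 3 than in malathion replicate 3, whereas KPNA7 was higher there. In replicates 3 the malathion level was 3.94 times the control level for KPNA2 and 0.141 times for KPNA7.

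**Figure D1:**
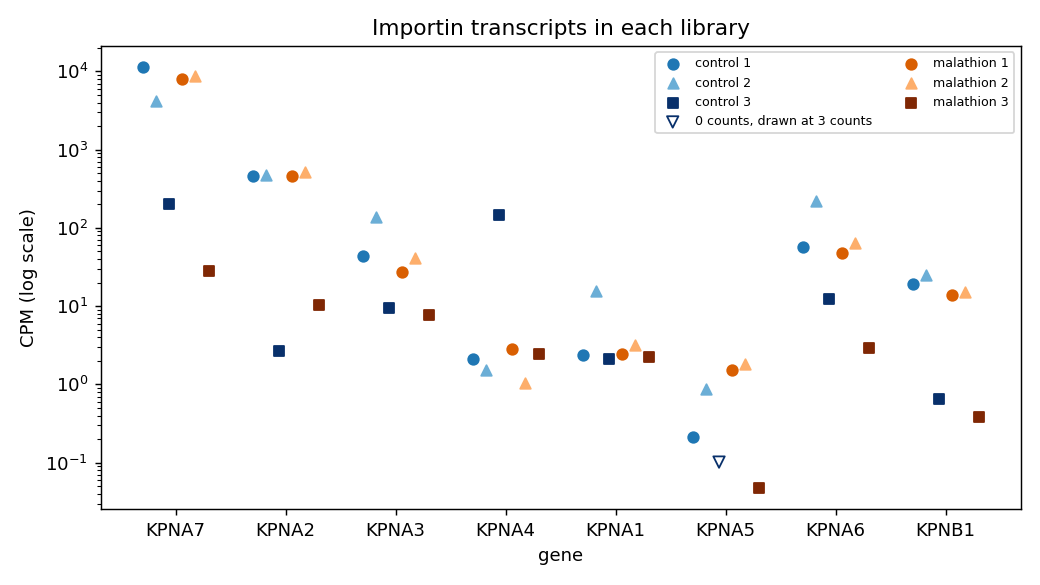
CPM of each importin gene (log axis) in each of the 6 libraries, 1 point per library; the open triangle marks KPNA5 with 0 counts in control replicate 3, drawn at the level of 3 counts. KPNA7 and KPNA2 are low in both replicate 3 libraries, while KPNA4 is high in control replicate 3 alone, at 145 CPM.

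KPNA7 supplied most importin alpha reads in each library. Its share of the counts of the 7 alphas was 95.3% in control replicate 1 (Wilson 95% interval 95.2% to 95.4%), 82.8% in control replicate 2 (82.6% to 83.0%) and 53.7% in control replicate 3 (52.7% to 54.6%). In malathion replicates 1, 2 and 3 the share was 93.7% (93.6% to 93.8%), 93.4% (93.3% to 93.5%) and 52.2% (50.2% to 54.3%). The intervals cover counting error only, because PCR reads without molecular identifiers are not independent molecules. Shares are of read counts, and a longer transcript gives more reads, so they are not shares of molecules.

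The KPNA7 share varied more within the groups than between them. It averaged 77.3% ± 21.4 for control and 79.8% ± 23.9 for malathion (SD, n = 3 each), a difference of 2.52 percentage points (exact two-sided permutation test, p = 1.0, smallest possible p 0.1). Malathion minus control was −1.58, 10.6 and −1.42 percentage points within the same-numbered pairs 1, 2 and 3. The difference turned, without control replicate 3, to −9.28 points, and without malathion replicate 1 or 2 to −4.45 or −4.28 points. Without both replicate 3 libraries it was 4.49 points.

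Behind a similar KPNA7 share, the replicate 3 libraries held different other alphas. Among the counts of the 6 alphas other than KPNA7, KPNA4 took 84.6% in control replicate 3 and 9.57% in malathion replicate 3, and at most 0.534% in the other 4 libraries. KPNA2 took 1.54% in control replicate 3 and 40.6% in malathion replicate 3, KPNA3 5.50% and 29.6%, and KPNA1 1.22% and 8.74%. The summed level of these 6 genes was 172 CPM in control replicate 3 and 25.7 CPM in malathion replicate 3, so both mixtures rest on few reads, 5071 and 1087 counts. KPNA2 led these 6 genes elsewhere, with 81.2% and 55.9% for control and 84.7% and 82.1% for malathion in replicates 1 and 2.

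**Figure D2:**
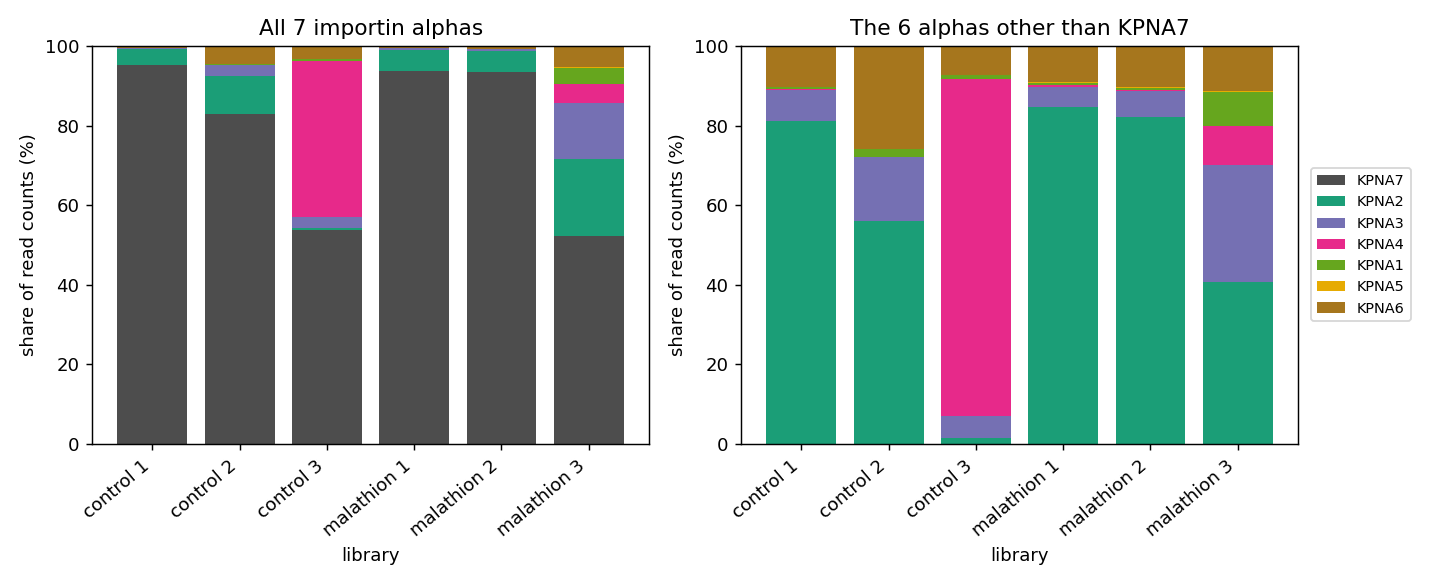
Stacked shares of read counts (%) among all 7 importin alphas (left) and among the 6 other than KPNA7 (right), 1 bar per library. KPNA7 takes 52.2% to 95.3% of the alpha counts, and KPNA4 takes 84.6% of the rest in control replicate 3.

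KPNA3 and KPNA4 are close paralogs of the same subtype with different patterns here. KPNA3 (ENSSSCG00000024125) stood at 43.2, 138 and 9.47 CPM under control conditions and at 27.3, 41.4 and 7.61 CPM after malathion. It was highest in control replicate 2 and low in both replicate 3 libraries. KPNA4 (ENSSSCG00000031077) stood at 2.09, 1.51 and 145 CPM under control conditions and at 2.87, 1.04 and 2.46 CPM after malathion. One library set it apart, since control replicate 3 had 4288 counts and each other library at most 104. Control replicate 3 held 93.6% of the KPNA4 level summed over the libraries, and the other 5 values overlapped between the groups.

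KPNA6 and KPNA1 were highest in control replicate 2. KPNA6 (ENSSSCG00000034017), an adaptor found in most tissues, stood at 57.4, 222 and 12.4 CPM under control conditions and at 48.0, 64.1 and 2.91 CPM after malathion. KPNA1 (ENSSSCG00000028475), also broadly expressed, stood at 2.38, 15.7 and 2.10 CPM under control conditions and at 2.48, 3.17 and 2.25 CPM after malathion. KPNA3 too was highest in that library, the one with 14707 genes detected. KPNA1 lay between 2.10 and 2.25 CPM in the replicate 3 libraries, close to its level in replicates 1.

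KPNA5 was near the limit of detection. KPNA5 (ENSSSCG00000004262) had 6, 24 and 0 counts under control conditions and 39, 50 and 2 counts after malathion. The 0 in control replicate 3 allows a level of up to 0.102 CPM. In replicates 1 and 2 its level was 0.216 and 0.885 CPM for control and 1.51 and 1.80 CPM for malathion. These 4 libraries were split by group, but malathion replicate 3, at 0.0473 CPM, lay below them. No fold is given for replicates 3, where both libraries were under the 3 counts taken as the floor.

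KPNB1, the carrier that the alphas share, gave few reads. KPNB1 (ENSSSCG00000017514) stood at 19.3, 25.3 and 0.645 CPM under control conditions and at 13.8, 14.98 and 0.378 CPM after malathion. Within each same-numbered pair malathion was lower, with log2 ratios of −0.48, −0.75 and −0.77. The groups overlapped, since control replicate 3 lay below malathion replicates 1 and 2, and the replicate 3 libraries held 19 and 16 counts. Among the 7 alphas only KPNA3 and KPNA6 were lower in all 3 pairs. The log2 ratios were −0.66, −1.74 and −0.31 for KPNA3 and −0.26, −1.79 and −2.09 for KPNA6. Lower values were common, since 66.3% of all genes tested had a log2 fold change below 0. The share of all genes lower in all 3 pairs was not computed.

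The balance of beta to alpha reads did not part the groups. The summed level of the 7 alphas was 11937, 4994 and 371 CPM under control conditions and 8551, 9419 and 53.8 CPM after malathion. On the log2 scale the means were 11.46 ± 2.60 and 10.67 ± 4.26 (SD, n = 3 each), and the difference was −0.78 (exact two-sided permutation test, p = 0.8). The log2 ratio of KPNB1 counts to summed alpha counts was −9.27, −7.63 and −9.17 under control conditions and −9.28, −9.30 and −7.15 after malathion. Control replicate 2 and malathion replicate 3 were the highest, and the other 4 libraries lay between −9.30 and −9.17. The group means of this ratio were −8.69 ± 0.92 and −8.58 ± 1.23 (SD, n = 3 each), a difference of 0.12 (exact two-sided permutation test, p = 1.0). Over these 3 library measures the adjusted p was 1.0 throughout. The difference in summed alphas turned to 0.26 without control replicate 1, 1.68 without malathion replicate 3 and 0.22 without both replicate 3 libraries. The difference in the ratio turned to −0.18, −0.12 and −0.60 without control replicate 1, control replicate 3 and malathion replicate 3, and to −0.84 without both replicate 3 libraries.

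No importin gene passed the test of malathion against control, the comparison by which the study asked how the insecticide affects mRNA stored in oocytes. The test was edgeR's quasi-likelihood F test on library totals over the 10678 genes that passed a filter on low counts, with all 8 members among them. At an adjusted p of 0.05 it called 0 members and 0% of all genes (adjusted p = 0.99998 for each member). DESeq2 and limma-voom called 0 genes too. DESeq2, however, gave no adjusted p to 1119 of the 10678 genes, KPNA4 among them. The smallest adjusted p by DESeq2 was 0.0666. Before adjustment, 1 of the 8 members had a p under 0.05, against 1.03% of all genes tested by edgeR (110 genes), with 227 such genes by DESeq2 and 3 by limma-voom. Of the members, 3 had a log2 fold change above 0 and 5 below, against 33.7% and 66.3% of all genes. Their median was −0.98, beside −0.33 over all genes. The split became 4 to 4 without both replicate 3 libraries (median −0.29, beside −0.34 over all genes) and 4 to 4 without control replicate 2 (median 0.05, beside 0.41 over all genes). The groups did not overlap for 0 of the 8 members and for 0.749% of all genes.

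The fold changes of the KPNA7 subtype were near 0 with wide intervals. KPNA7 had a log2 fold change, malathion minus control, of 0.10 ± 1.80 (SE, 95% interval −3.43 to 3.63). Without both replicate 3 libraries it was 0.12 ± 0.56 (95% interval −1.25 to 1.48). Its sign depended on the fit. The value was −0.0593 under TMM factors, which rescale libraries to a common bulk of genes. Under a replicate block, a term for the replicate number, the value was −0.71 ± 1.08 (SE). It also turned to −0.04, −0.47, −0.25 and −0.38 without control replicate 2, control replicate 3, malathion replicate 1 and malathion replicate 2. KPNA2 had 0.06 ± 1.81, and 0.05 ± 0.36 without both replicate 3 libraries (−0.83 to 0.93). KPNA2 turned to −0.52, −0.26 and −0.43 without control replicate 3, malathion replicate 1 and malathion replicate 2. TMM factors gave KPNA2 0.44, and they moved the median over all genes from −0.33 to −0.08.

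KPNA4 was the member with an unadjusted p under 0.05, and its value rested on control replicate 3. edgeR's quasi-likelihood test across all genes gave KPNA4 a log2 fold change of −4.55 ± 2.32 (SE; unadjusted p = 0.0497, adjusted p = 0.99998). Without that library the value turned to 0.24 ± 2.44, and without both replicate 3 libraries to 0.12 ± 1.04. Under the replicate block it was −1.55 ± 1.41. The unadjusted p across all genes in edgeR was 0.922 without control replicate 3, 0.311 under the block and 0.0361 with TMM factors.

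KPNA3, KPNA6 and KPNA1 had negative values of similar size, which moved most when control replicate 2 was left out. Their log2 fold changes were −1.32 ± 1.96, −1.34 ± 1.92 and −1.35 ± 2.44 (SE). Without control replicate 2 they stood at −0.05, 0.14 and 0.23, while the median over all genes moved from −0.33 to 0.41. Each thus stayed below that median. The other alternatives kept all 3 below 0, with −0.90 ± 0.58, −1.39 ± 0.64 and −0.69 ± 0.92 (SE) under the replicate block. TMM factors gave −0.59, −1.39 and −0.14, beside −0.08 over all genes. KPNA1 thus came close to that median, and it stood at −0.18 both with RLE factors and with DESeq2. The fitted value of KPNA6 on library totals rested on control replicate 2, given its 0.14 without that library. Its log2 ratio was −1.79 in pair 2 and −2.09 in pair 3, the latter at low levels of 12.4 and 2.91 CPM. KPNB1 had −0.63 ± 2.15 and stayed below 0 in all 13 alternatives. It ranged from −1.20 without control replicate 3 to −0.04 without control replicate 2. The medians over all genes in those 2 fits were −0.83 and 0.41. KPNA5 had the highest value, 1.60 ± 2.77, on at most 50 counts per library, and 3.33 without control replicate 2.

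**Figure D3:**
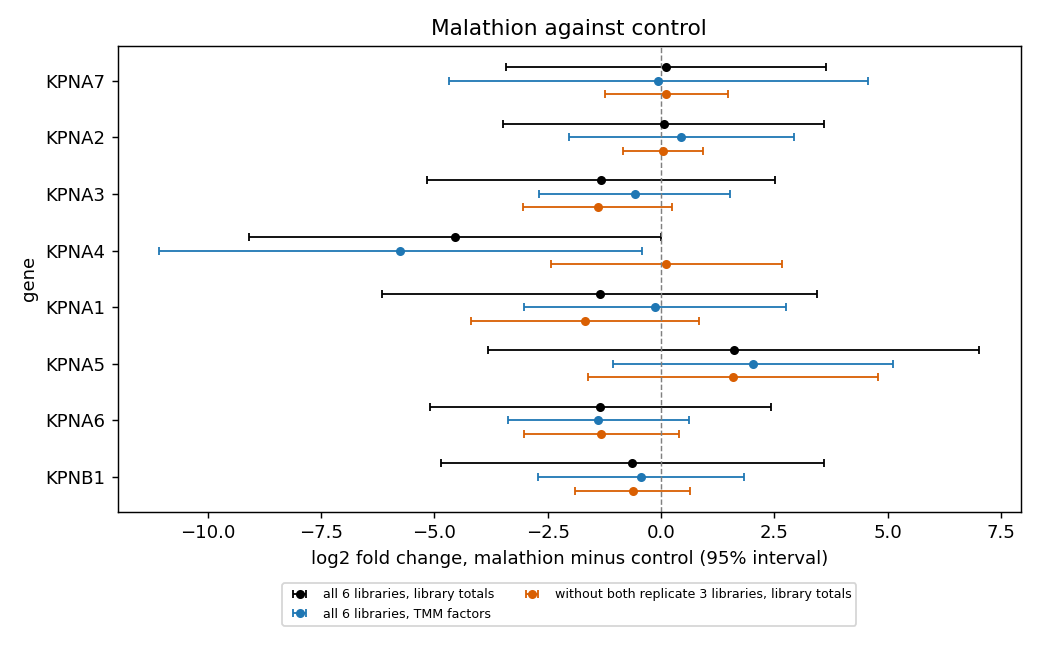
Log2 fold change, malathion minus control, of each importin gene with its 95% interval, from edgeR on library totals, with TMM factors, and without both replicate 3 libraries. The intervals on library totals span 0 for each gene but KPNA4, whose value of −4.55 becomes 0.12 without both replicate 3 libraries.

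The genes most like KPNA7 across the libraries included an egg coat gene and a pore gene. Likeness was the root mean square difference of log2(CPM + 1), centred on each gene's mean, over the 6 libraries and the 1283 other named genes with a mean of 100 CPM or more. The 5 nearest were ZP4, an egg coat glycoprotein (0.36 log2 units), LMAN2, a lectin of the secretory pathway (0.42), CCDC66, a centrosomal and ciliary protein (0.44), NUP88, a nuclear pore protein (0.47), and LGMN, a lysosomal protease (0.50). The median over the candidates was 1.89. ZP4 (ENSSSCG00000010141) stood at 2884, 2175 and 99.0 CPM under control conditions and at 3485, 4335 and 13.4 CPM after malathion. ZP4 does not stand for the egg coat genes. ZP2, another of them, was highest in malathion replicate 3, at 2158 CPM, where KPNA7 was lowest. ZP3 was highest in control replicate 2, at 998 CPM, and lowest in malathion replicate 3, at 1.35 CPM. Each of the 5 nearest genes was lowest in malathion replicate 3 and next lowest in control replicate 3, as was KPNA7. Their choice by likeness over these same values favoured that order, so it is not a separate result. KPNA2 was the 431st of these candidates, at 1.37 log2 units. The points share the same 6 libraries and their depth.

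**Figure D4:**
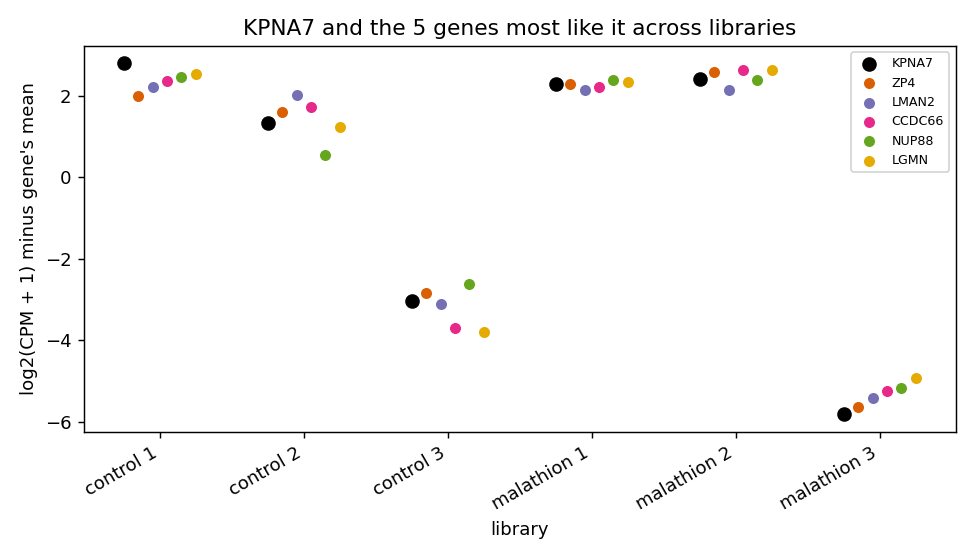
Log2(CPM + 1) minus each gene's own mean for KPNA7 (black) and the 5 genes nearest to it, 1 point per gene and library. All 6 genes are lowest in malathion replicate 3 and next lowest in control replicate 3, an order that the choice by likeness favours.

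The other importins of the beta family, most of which bind their cargo directly, were led by a gene highest where KPNA7 was lowest. Of 10 further importins of the beta family, 9 were matched and 8 tested, and their summed level was 1528, 658 and 2444 CPM under control conditions and 1878, 1472 and 2442 CPM after malathion. Most of it outside control replicate 2 was TNPO1, the carrier of many RNA-binding proteins, at 1405, 304 and 2407 CPM under control conditions and 1747, 1350 and 2374 CPM after malathion. TNPO1 was thus highest in both replicate 3 libraries, where KPNA7 was lowest. Without TNPO1 the list summed to 123, 353 and 37.5 CPM under control conditions and to 131, 121 and 67.5 CPM after malathion, lowest in both replicate 3 libraries. IPO8 lay between 32.4 and 117 CPM. TNPO2, which had the smallest p of this list, reached 105 CPM in control replicate 2 and 12.9 CPM at most elsewhere (log2 fold change −2.31 ± 2.12, SE, and 0.64 without control replicate 2). None of the 8 was called, and 1 was higher and 7 lower, while 66.3% of all genes tested were lower. Their median log2 fold change was −1.11, beside −0.33 over all genes. Leaving out both replicate 3 libraries kept 1 higher and 7 lower, with a median of −1.34 beside −0.34 over all genes. The median was 0.21 with TMM factors, beside −0.08 over all genes, and 0.31 without control replicate 2, still below the 0.41 over all genes.

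The summed level of the exportins was highest in the library that was high in KPNA4, through 2 of the 7 genes, while 4 others were highest in control replicate 2. The sum was 232, 550 and 3024 CPM under control conditions and 244, 274 and 192 CPM after malathion. XPO1 (ENSSSCG00000028228), the main exporter of proteins with a nuclear export signal, reached 2320 CPM in control replicate 3 and lay between 67.1 and 349 CPM elsewhere (log2 fold change −2.77 ± 1.92, SE, and −0.63 without control replicate 3). XPO6 (ENSSSCG00000007812), the exporter of actin, stood at 14.3, 29.0 and 696 CPM under control conditions and at 7.86, 13.0 and 0.0709 CPM after malathion, the last from 3 counts. Its groups did not overlap, but the gap between 14.3 and 13.0 CPM was small. XPO6 had a log2 fold change of −5.14 ± 2.20 (edgeR, unadjusted p = 0.0194, adjusted p = 0.99998), and −1.63 without control replicate 3. CSE1L, which exports the importin alphas and is named here for that role, stood at 7.59, 11.7 and 2.31 CPM under control conditions and at 4.92, 10.05 and 0.827 CPM after malathion. None of the 7 exportins was called, 1 was higher and 6 lower (median log2 fold change −1.01, beside −0.33 over all genes). Without control replicate 2 the exportin median was 0.12, beside 0.41 over all genes.

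The summed level of RAN cycle genes was lowest in both replicate 3 libraries, where KPNA7 was lowest. Of 9 genes, 8 were matched and 7 tested, without RAN itself, which had no entry in the name table. They summed to 323, 442 and 35.7 CPM under control conditions and to 266, 325 and 53.3 CPM after malathion. NUTF2, which imports RAN, stood at 135, 175 and 0.543 CPM under control conditions and at 122, 138 and 0.355 CPM after malathion. RANBP2, the pore filament protein, lay between 33.3 and 111 CPM in all 6 libraries and made up most of the list in both replicate 3 libraries. SNUPN, an adaptor for small nuclear RNA particles, was highest in control replicate 2, at 41.8 CPM. Its log2 fold change, the one with the smallest p in the list, was −1.76 ± 2.22 (SE), and −0.19 once that library was left out. None of the 7 was called, 1 was higher and 6 lower, with a median log2 fold change of −0.45, beside −0.33 over all genes. Without control replicate 2 the median was 0.07, beside 0.41 over all genes.

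Pore proteins, spindle factors and lamina genes had fold changes on both sides of 0. Of 29 pore genes, 28 were matched and tested, and 0 were called. Of these, 15 were higher and 13 lower, while 33.7% of all genes tested were higher. Their median log2 fold change was 0.14, beside −0.33 over all genes. With TMM factors the median was 0.37, beside −0.08 over all genes. Leaving out both replicate 3 libraries gave 0.22, beside −0.34 over all genes. Without control replicate 2, 25 were higher and 3 lower, with a median of 0.35 beside 0.41 over all genes. They summed to 9081, 5294 and 3287 CPM under control conditions and to 7812, 9461 and 2938 CPM after malathion. RAE1, a pore protein of mRNA export, stood between 1291 and 2814 CPM, and SEH1L, a scaffold protein of the pore, was highest in both replicate 3 libraries, at 1744 CPM for control and 902 CPM for malathion. AAAS, which had the smallest p of the pore genes, had a log2 fold change of −1.03 ± 2.11 (SE), which became 0.85 once control replicate 2 was left out.

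The 7 spindle factors that importins regulate gave 3 higher and 4 lower values, with 0 called. Their median log2 fold change was −0.03, beside −0.33 over all genes. Without control replicate 2, 5 were higher and 2 lower (median 0.25, beside 0.41 over all genes). HMMR, a spindle pole protein, lay between 1577 and 2057 CPM in 4 libraries, and was lower in replicates 3, at 65.1 CPM for control and 942 CPM for malathion. NUSAP1, which bundles spindle microtubules, went the other way in replicates 3, at 359 CPM for control and 26.9 CPM for malathion. TPX2, named for its role as an importin alpha cargo, stood at 953, 456 and 322 CPM under control conditions and at 821, 814 and 5.62 CPM after malathion. KIFC1, a motor that importins hold off the spindle, had the smallest p and was highest in control replicate 2, at 20.7 CPM (log2 fold change −1.08 ± 2.30, and 0.03 without control replicate 2).

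Of the 7 lamina genes, 4 were higher and 3 lower, with 0 called. Their median log2 fold change was 0.21, beside −0.33 over all genes. Leaving out both replicate 3 libraries gave 0.20, beside −0.34 over all genes. All 7 were higher without control replicate 2 (median 0.34, beside 0.41 over all genes). BANF1, which ties chromatin to the envelope, lay between 85.5 and 118 CPM in 4 libraries and was at 4.48 and 12.9 CPM in the control and malathion libraries of replicates 3. LMNB2, a B-type lamin, lay between 37.5 and 47.0 CPM in 4 libraries and was at 0.0679 and 0.0945 CPM in the same 2. LMNB1 had the smallest p, with a log2 fold change of −0.43 ± 2.23 (SE), which became 0.12 once control replicate 2 was left out.

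**Figure D5:**
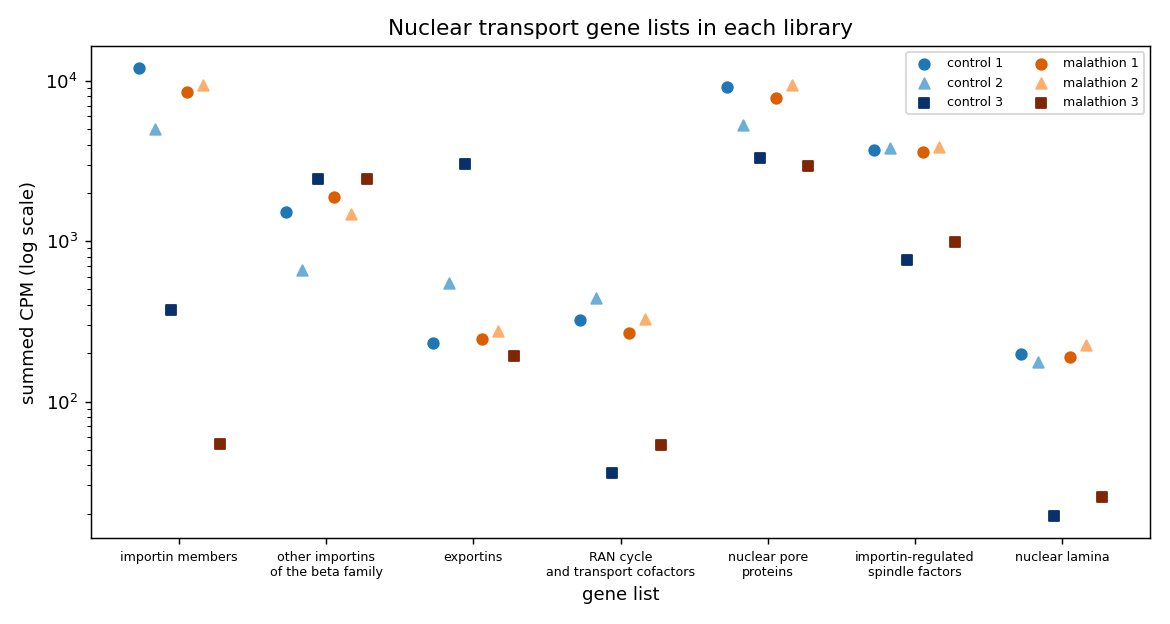
Summed CPM (log axis) of the 8 importin genes and of 6 lists of nuclear transport and envelope genes, 1 point per library. The importin sum is 372 and 54.2 CPM in the replicate 3 libraries of control and malathion, while the other beta family importins stand at 2444 and 2442 CPM there.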

How the data were processed

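The deposited files hold 1 column of raw read counts per gene for each of 6 libraries, per the file rows. The submitters' processing notes name STAR (2.5.3a), DESeq2 (1.20.0) and HTSeq (0.9.1) without their roles. Build, annotation and strandedness are not given in the sources used here, so no coordinates are printed. The 5 HTSeq rows of reads given to no gene (36.7% to 42.6% of a file) were left out. Reads aligned to more than 1 place (2.45% to 8.37%) are lost, and paralogs of near-identical sequence can lose more of them. A name table gave a symbol to 14857 of 25880 genes. CPM were computed on the sum of gene rows.

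The comparison of the groups used the quasi-likelihood F test of edgeR 4.0.16 under R 4.3.3, with filterByExpr (minimum count 10, minimum total 15), two-sided, with Benjamini-Hochberg adjustment over 10678 genes. Library totals were the main scaling, because the levels are CPM and TMM factors ranged from 0.138 to 3.57. The main fit held no term for the replicate number, because the labels name no batch. Alternatives were TMM and RLE factors, DESeq2 1.42.0, limma-voom (limma 3.58.1), no filter, a replicate block, and fewer libraries. Single values were tested with exact permutation tests. The edgeR fit was tested on simulated counts whose spread between replicates was set below that of these libraries, so that test does not describe its power here. The lowest chi-square per degree of freedom between libraries was 56.9, so no library was present in duplicate.

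Members, lists and tests were chosen with earlier results of these data known. The genes named were the members, in each list the 2 of highest mean CPM and the 1 with the smallest p, and the 5 most like KPNA7. CSE1L and TPX2 were added for their roles. Oocyte markers without a match were NLRP5, cumulus markers FOXL2, CYP19A1 and HSD3B1, and of the remaining lists VWF, IPO13, RAN and POM121.

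Control and malathion libraries share replicate numbers, with no label saying what a number marks. Across genes, the deviation from the group mean in a control library correlated with that in the malathion library of the same number at r = 0.467, 0.378 and 0.587 for replicates 1, 2 and 3. All were above 0.1, the limit set for taking the numbers to pair the libraries. That limit could not decide the pairing. Deviations in a group sum to 0, so replicate 3 libraries that stand apart also raise r among replicates 1 and 2. Numbers 1 and 2 were not clearly told apart. Control 1 with malathion 2 (r = 0.439) and control 2 with malathion 1 (0.261) also passed the limit. The other 4 combinations were negative. Genes are not independent replicates.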

Additional observations from a re-analysis of the deposited data

How the results depend on the processing

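Over 220 alternative values, 194 kept their direction or count, and 26 turned sign. The 194 include 13 counts of genes called over all genes and 13 for each of the 6 lists. Such counts have no sign, and those of the lists follow from the 0 calls over all genes. The replicate block leaves the difference of each library measure unchanged by construction. No fit moved an adjusted p to the other side of 0.05, and no exact test moved its unadjusted p there. KPNA4 had no adjusted p under DESeq2, so that value could not move one. The exact tests could not reach 0.05 at this number of libraries. The number of genes called by edgeR, DESeq2 or limma-voom stayed at 0 for all genes and for each list in each alternative. Genes with a p under 0.05 before adjustment numbered 110 on library totals, 383 with TMM factors, 413 with RLE factors, 270 with no filter, 136 with the replicate block, 227 with DESeq2 and 3 with limma-voom. The replicate block changed no call and gave −0.71 for KPNA7. KPNA7 also turned to −0.0593 with TMM factors, −0.12 with RLE factors, −0.12 with DESeq2 and −0.91 with limma-voom. When 1 library was left out, values ranged from −0.47 to 1.37 for KPNA7, −0.52 to 0.63 for KPNA2, −5.12 to 0.24 for KPNA4, −1.78 to 0.23 for KPNA1, −1.93 to 0.14 for KPNA6, −1.86 to −0.05 for KPNA3, 1.02 to 3.33 for KPNA5 and −1.20 to −0.04 for KPNB1. They ranged from −9.28 to 16.3 percentage points for the KPNA7 share, −2.24 to 1.68 for the log2 summed alphas and −0.60 to 0.65 for the log2 ratio of KPNB1 to alphas. Without both replicate 3 libraries KPNA4 stood at 0.12, the summed alphas at 0.22 and the ratio at −0.84. The cause of these turns was not tested. Shares and ratios per coding length were not run, because no transcript or protein lengths were used here. KPNA5 and KPNB1 are limited by depth, with at most 50 counts for KPNA5 and 16 to 19 counts for KPNB1 in the replicate 3 libraries.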
